A study of Mus musculus with 2 samples.

Results

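The genes described here were 10 lipases of neutral lipids, taken by symbol from the 32285 genes of the count matrices. They were *Pnpla2*, *Pnpla3*, *Pnpla5*, *Lipe*, *Mgll*, *Lipm*, *Lipk*, *Lipn*, *Lpl* and *Lipa*. All 10 had at least 1 unique molecular identifier (UMI) in the kept cells of back skin, and 8 had one in the kept cells of the preputial gland (PG), where *Pnpla3* and *Lipn* had 0. The samples were dissociated back skin and PG of male wild type C57BL/6 mice aged 52 weeks, with no treatment in either group. The cells of 3 mice were pooled per tissue and measured as 1 droplet library, so each tissue is 1 sample. There is no spread between mice, no test and no p-value, and tissue and library cannot be told apart. The PG is a large sebaceous gland that is used as a stand-in for the small sebaceous glands (SG) of skin, and the study asked how far its sebocytes (SEB) resemble those of skin.

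Lipases split fatty acids from the glycerol or sterol that carries them. In a lipid droplet, adipose triglyceride lipase (*Pnpla2*) takes the first fatty acid from a triglyceride, hormone-sensitive lipase (*Lipe*) takes the next from the diglyceride, and monoglyceride lipase (*Mgll*) releases the last. *Mgll* also degrades the endocannabinoid 2-arachidonoylglycerol. *Pnpla3* and *Pnpla5* are relatives of *Pnpla2*. Lipoprotein lipase (*Lpl*) is secreted and works on the surface of capillaries, where it frees fatty acids from circulating lipoproteins, and lysosomal acid lipase (*Lipa*) digests cholesteryl esters and triglycerides taken up by the cell. *Lipk*, *Lipm* and *Lipn* are relatives of acid lipase known from the last living layers of the epidermis. Sebocytes fill with lipid droplets as they mature and burst to release sebum, while the granular layer of the epidermis secretes the lipids of the skin barrier.

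In the GRCm38 mouse genome (mm10 in the labels), *Lipk* (chr19:34008290-34047835), *Lipn* (chr19:34067358-34084918) and *Lipm* (chr19:34100933-34122687) lie side by side on the plus strand. *Lipk* and *Lipn* are 19522 bases apart, *Lipn* and *Lipm* 16014 bases, and no other coding gene lies between them. *Lipa* (chr19:34492318-34527474, minus strand) follows 369630 bases after *Lipm*, with 4 coding genes between. *Pnpla5* (chr15:84112356-84123175, minus strand) and *Pnpla3* (chr15:84167837-84187236, plus strand) are also neighbours, 44661 bases apart. The others lie alone, with *Mgll* at chr6:88724412-88828360, *Pnpla2* at chr7:141455198-141460743 and *Lpl* at chr8:68880491-68907448 on the plus strand and *Lipe* at chr7:25379527-25398710 on the minus strand. *Lipm* overlaps the coding gene *Ankrd22* on the opposite strand, *Lipe* the antisense gene *4732471J01Rik* and *Mgll* the antisense gene *Gm26588*. Whether counting used the strand is not given in the sources used here, so the counts of these 3 pairs are uncertain in that respect.

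The promoters of 4 members are shown, because *Mgll* and *Pnpla5* had the largest shares of their UMIs in PG sebocytes, and *Lipm* and *Lipn* are neighbours of which the PG held UMIs of only the first. Each runs from 250 to 11 bases before the start of the gene in RefSeq (GRCm38.p6), 5′ to 3′ on the strand of the gene, and lies upstream of the gene with no annotated exon inside. The RefSeq start of *Lipm* lies inside the GENCODE span given above, and those of the other 3 are at its end. Capitals mark matches, on either strand, to CACGTG (an E-box), TGANTCA (an AP-1 site), TATAAA (the box of core promoters), AGGTCA (a nuclear receptor half-site), CCAAT or GGGCGG (a GC box).
*Mgll*, chr6:88724162-88724401, plus strand: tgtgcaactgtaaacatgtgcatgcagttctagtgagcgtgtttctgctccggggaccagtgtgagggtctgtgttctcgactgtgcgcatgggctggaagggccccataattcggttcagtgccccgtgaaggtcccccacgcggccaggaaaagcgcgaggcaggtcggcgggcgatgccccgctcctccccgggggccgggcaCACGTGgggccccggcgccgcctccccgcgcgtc
*Pnpla5*, chr15:84123186-84123425, minus strand: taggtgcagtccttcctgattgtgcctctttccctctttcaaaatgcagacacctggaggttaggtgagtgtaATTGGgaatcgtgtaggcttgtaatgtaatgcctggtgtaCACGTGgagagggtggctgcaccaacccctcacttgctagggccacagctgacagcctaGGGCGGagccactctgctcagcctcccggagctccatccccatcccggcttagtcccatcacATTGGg
*Lipm*, chr19:34100693-34100932, plus strand: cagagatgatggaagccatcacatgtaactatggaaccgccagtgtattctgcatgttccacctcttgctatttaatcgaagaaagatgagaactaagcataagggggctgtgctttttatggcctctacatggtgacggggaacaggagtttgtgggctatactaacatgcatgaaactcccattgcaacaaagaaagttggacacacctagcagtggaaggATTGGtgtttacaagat
*Lipn*, chr19:34067108-34067347, plus strand: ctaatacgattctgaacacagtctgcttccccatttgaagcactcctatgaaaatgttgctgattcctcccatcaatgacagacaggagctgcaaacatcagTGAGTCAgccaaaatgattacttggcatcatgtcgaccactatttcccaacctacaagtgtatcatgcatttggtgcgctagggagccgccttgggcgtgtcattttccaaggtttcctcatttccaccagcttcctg
The *Mgll* promoter, the first of 2 entries of the gene, held 1 E-box, from 44 to 39 bases before the start. The *Pnpla5* promoter held 1 E-box, from 137 to 132 bases before the start, with 2 matches to CCAAT and 1 GC box. The capitals of the *Lipm* promoter mark a match to CCAAT, and those of the *Lipn* promoter an AP-1 site from 148 to 142 bases before the start. Promoters were matched for 8 members, as 10 entries, and not for *Lipk* and *Lpl*. Of the 10 entries 3 held CACGTG, against 5.69% of 32851 promoters of the same length. The AP-1 site was in 1 entry (6.58% of all promoters), TATAAA in 1 (12.1%) and the half-site in 0 (13.5%). CCAAT was in 4 (33.0%) and the GC box in 5 (31.3%). The motifs did not overlap each other in the 4 promoters printed, and a match describes letters, not a bound site.

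A barcode was kept as a cell when it reached 500 genes and 1000 UMIs with no more than 10% of them mitochondrial, which left 8899 cells with 27407186 UMIs in skin and 4699 cells with 15270076 UMIs in PG. The barcode lists of the libraries differ, although the paper names a single library kit, and 0 kept cells shared a barcode. Lists of 6794880 (skin) and 737280 (PG) barcodes point to different droplet chemistries, which was not tested. A difference in chemistry could not be told apart from tissue in any PG over skin ratio. Each cell was placed in a class by its share of marker UMIs, the class is called sebocyte-like, basal-like and so on, and no lipase was a marker. A level is the sum of a gene's UMIs over a class per 1000000 UMIs of that class (CPM), with an exact Poisson 95% interval that covers counting error only. The kit that the paper names counts the 3′ ends of transcripts, but whether both libraries were made with it is not known here. Levels are compared between cells and not between genes. A ratio is given as log2 with an exact binomial 95% interval, and a gene was called when it was past 2-fold, among genes with at least 10 UMIs over the groups compared. A gene can reach that limit through the group where it is high, so counts by direction are descriptions only. In a group without UMIs a floor of 3 counts was used, and "at least", "or less" and "allows up to" mark values at that floor. The exact 95% interval can reach past them. Fewer cells of a type and less RNA per cell cannot be told apart for sums over a whole library, while class levels are per UMI of the class. Free RNA was read from barcodes with 1 to 100 UMIs.

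The sebocyte gate took 28 cells in skin and 771 in PG. They were staged as early by basal keratins, *Col17a1* and the integrin *Itga6*. The late markers were enzymes of wax ester and sterol ester synthesis, the elongase *Elovl3* and the lipid droplet protein *Plin5*. This gave 7 early, 8 middle and 13 late cells in skin and 139, 581 and 51 in PG. The identity of the 8 middle cells of skin as sebocytes is weak. They held 131.8 UMIs of inner root sheath markers per 10000, from 2 of the 7 markers, against 1.53 in the late cells. The inner root sheath gate asked for 60 per 10000 from at least 3 markers. Little is read from these 8 cells, but they stay in the pooled skin SEB-like class, with 32544 of its 129120 UMIs. In skin 11 of the 28 SEB-like cells lay within 1.5 times the gate and 17 cells just under it. The late PG cells held a median of 8157 UMIs and 6.46% mitochondrial UMIs, against 4055 and 3.12% in the early cells. The 7 genes of dissociation stress were at a median of 28.7 per 10000 in late skin cells and 4.14 in late PG cells, and at 21.5 and 2.18 in keratinocyte-like cells. The part of these differences in the ratios below was not tested.

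*Mgll* and *Pnpla5* were highest in late SEB-like cells of the PG, and *Lpl* in late SEB-like and then fibroblast-like cells of the PG. *Pnpla2* was highest in contractile cells, *Lipe* in endothelial-like cells of the PG and *Lipa* in macrophage or dendritic-like cells. The 3 epidermal lipases were highest in the granular-like keratinocytes of skin. In PG the SEB-like cells were 16.4% of the cells and held 27.7% of the UMIs, but 96.5% of the UMIs of *Pnpla5*, 88.5% of *Mgll*, 52.5% of *Lpl*, 49.7% of *Lipm* and 46.6% of *Pnpla2*. They held 15.4% of those of *Lipa*. In skin the granular-like cells were 1.15% of the cells and held 2.71% of the UMIs, but 88.9% of *Lipn*, 75.7% of *Lipk* and 19.4% of *Lipm*.

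**Figure D1:**
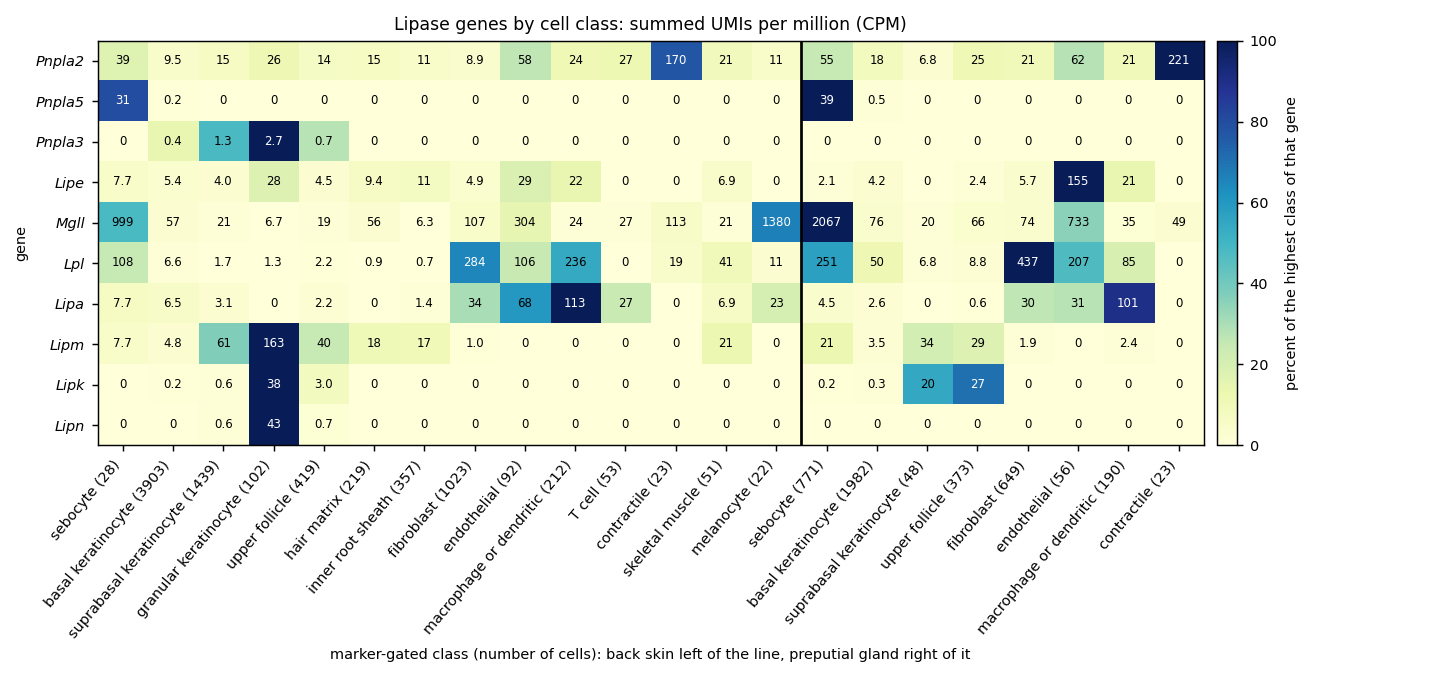
Heatmap of the 10 lipase genes (rows) in each marker-gated class with at least 20 cells (columns, back skin left of the black line and PG right of it, number of cells in brackets). Each number is the level in CPM, and the colour is that level as a percent of the gene's own highest class. Mgll peaks in PG sebocyte-like cells, at 2067 CPM, and Lipn is at 0 in all PG classes shown.

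*Mgll*, the monoglyceride lipase, was found in all 3 stages of PG sebocytes and stood higher at each. In PG it stood at 704 CPM (640 to 773) in early, 1686 CPM (1642 to 1732) in middle and 7411 CPM (7143 to 7687) in late cells, and none of these intervals overlap. The median cell held 253 CPM in the early stage, 1012 CPM in the middle and 6557 CPM in the late stage, so the rise was not carried by a few cells. Of the 51 late cells 50 held a UMI of *Mgll*, and the cell with most held 5.45% of the 2883 UMIs of the stage. After each cell was thinned to 1000 UMIs, 98.0% of the late, 60.4% of the middle and 30.9% of the early cells held an *Mgll* UMI, against 2.63% of the macrophage or dendritic-like cells of the same library. Unthinned shares were 98.0%, 89.8%, 61.2% and 5.79%, at median depths of 8157, 5385, 4055 and 1969 UMIs. Free RNA of the PG held *Mgll* at 551 CPM, near the level of all kept cells (647 CPM).

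In skin, late SEB-like cells held *Mgll* at 1699 CPM (1411 to 2029), from 122 UMIs in 10 of 13 cells. The cell with most held 48 of them, and without these 48, over the unchanged UMI total of the stage, the level was 1031 CPM. The 8 middle cells held 7 UMIs and the 7 early cells 0, which allows up to 121 CPM. Outside the sebocytes of skin, the 22 melanocyte-like cells were a second place of high *Mgll*, at 1380 CPM (1144 to 1650) from 18 cells. That interval overlapped the one of all skin SEB-like cells, 999 CPM (834 to 1187). Melanocytes carry the pigment enzymes of hair and epidermis, and these cells held all 5 of their markers at 489 per 10000, with sebocyte markers at 3.45 per 10000. Endothelial-like cells came next outside the sebocytes of both tissues, at 304 CPM (233 to 389) in skin and 733 CPM (573 to 925) in PG. In cells of the latter class that held a UMI of *Gpihbp1*, the capillary anchor of lipoprotein lipase, *Mgll* was at 550 CPM in skin and 863 CPM in PG, against 125 and 245 CPM in those without. This split, and those by other genes below, was chosen after values had been seen. Fibroblast-like cells held 107 CPM (93.0 to 122) in skin and 74.5 CPM (58.9 to 93.0) in PG. Basal-like keratinocytes held 56.7 and 76.1 CPM, close to fibroblasts in PG, where the intervals overlap, but not in skin. Granular-like cells of skin were at 6.73 CPM (2.18 to 15.7).

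**Figure D2:**
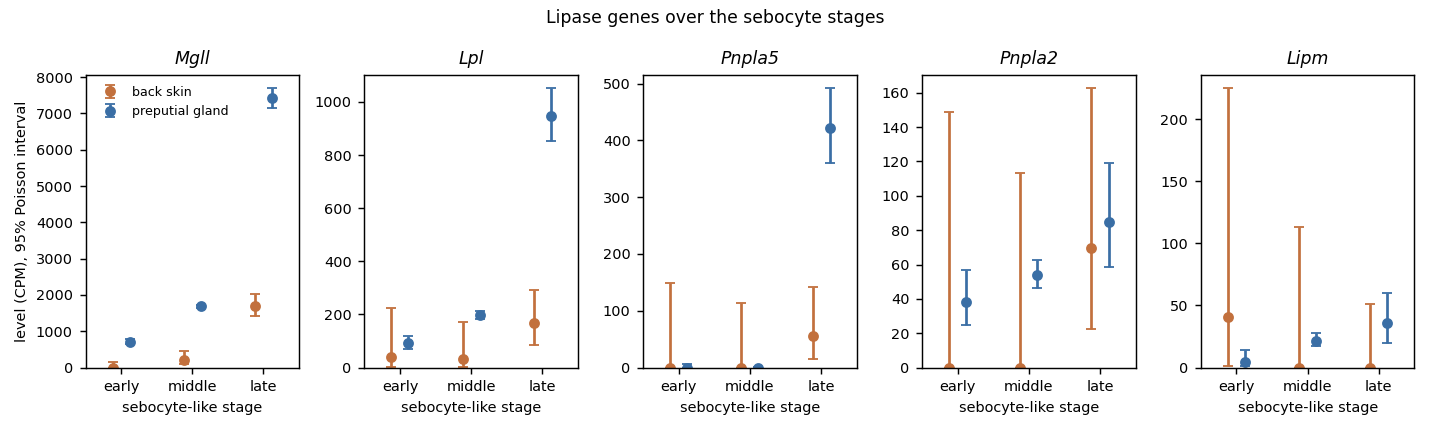
Level in CPM (y axis, linear, with its own scale in each panel) of 5 lipase genes over the early, middle and late sebocyte-like cells (x axis) of back skin (orange) and PG (blue). Points are sums over all cells of a stage and bars are 95% Poisson intervals. In PG, Mgll climbs from 704 to 7411 CPM and Pnpla5 is seen in the late stage alone. The skin intervals are wide because its stages hold 7, 8 and 13 cells.

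*Pnpla2*, which starts the breakdown of stored triglyceride, was detected in most classes at low levels. Its highest levels were in the contractile cells, at 170 CPM (77.8 to 323) in skin and 221 CPM (101 to 419) in PG, but each rests on 9 UMIs in 23 cells. In PG 4 of these 9 UMIs came from a single cell. In PG SEB-like cells *Pnpla2* stood at 38.2 CPM (24.5 to 56.9) in the early, 54.2 CPM (46.4 to 62.8) in the middle and 84.8 CPM (58.4 to 119) in the late stage. Neighbouring stages overlapped, and early and late did not. Late cells of skin were at 69.6 CPM (22.6 to 163) from 5 UMIs, which spans all the PG stages. Endothelial-like cells were at 57.9 CPM in skin and 62.0 CPM in PG, with overlapping intervals, and basal-like keratinocytes at 9.50 CPM (7.76 to 11.5) and 18.4 CPM (15 to 22.2). Free RNA held 8.60 CPM in skin and 27.6 CPM in PG, so the level of PG basal-like cells lay under that of free RNA.

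*Pnpla5*, a relative of *Pnpla2*, was the member most bound to a stage. All 164 of its UMIs in PG SEB-like cells came from the late stage, where 21 of 51 cells held between 1 and 33 UMIs and the level was 422 CPM (360 to 491). The 139 early and 581 middle cells held 0, which allows up to 4.78 and 0.934 CPM. In skin 4 UMIs were found in 1 of the 13 late cells, a level of 55.7 CPM (15.2 to 143) that rests on that cell, and 0 in the other SEB-like cells. Elsewhere *Pnpla5* had 2 UMIs in skin and 6 in PG. Free RNA of the PG held it at 23.3 CPM, above the 11.1 CPM of all kept cells. *Pnpla3*, its neighbour on the chromosome, was near the limit of detection. It had 14 UMIs in skin, of which 9 were in suprabasal or granular-like keratinocytes, and 0 of 15270076 UMIs in PG, which allows up to 0.196 CPM.

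*Lipe*, the hormone-sensitive lipase, was scarce in SEB-like cells. These held 9 UMIs in PG, at 2.13 CPM (0.973 to 4.04), and 1 UMI in skin, and PG free RNA was higher, at 5.05 CPM. The endothelial-like cells of the PG held 155 CPM (86.7 to 255) from 15 UMIs in 12 of 56 cells. All 15 were in the 44 cells with a *Gpihbp1* UMI, at 196 CPM (110 to 324). In skin the 6 UMIs of endothelial-like cells were also all in cells with *Gpihbp1*, at 68.8 CPM (25.2 to 150). Adipocytes, in which *Lipe* is a defining enzyme, were not found as a class, with 1 cell past their gate in PG and 0 in skin. Of their 6 markers, 3 had UMIs in PG endothelial-like cells, among them 4 UMIs of *Adipoq* (41.3 CPM), while *Lep*, *Plin1* and *Acvr1c* were at 0. Their part in the *Lipe* level was not tested. In skin, granular-like keratinocytes (28.2 CPM, 17.5 to 43.2) and macrophage or dendritic-like cells (22.1 CPM, 10.6 to 40.6) did not differ from endothelial-like cells (28.9 CPM, 10.6 to 63.0) beyond counting error. The antisense gene *4732471J01Rik* had at most 9 UMIs in a class.

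**Figure D3:**
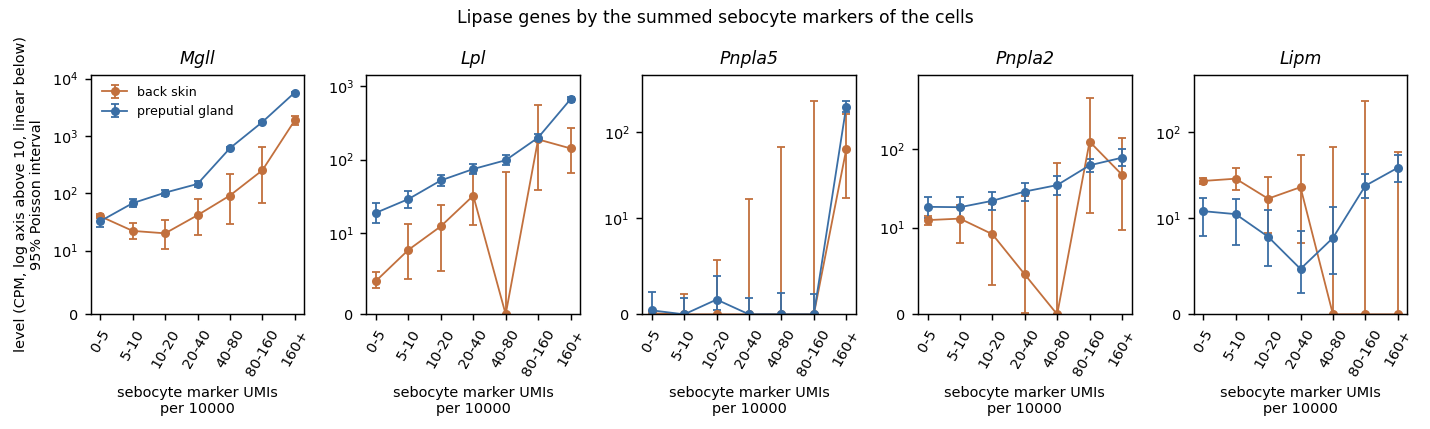
Level in CPM (y axis, log above 10 and linear below) of 5 lipase genes in the sebocyte-like, keratinocyte-like and upper follicle-like cells and the cells past no gate, by bins of summed sebocyte marker UMIs per 10000 (x axis), for back skin (orange) and PG (blue), with 95% Poisson intervals. Mgll and Lpl climb over the bins of the PG, whereas Pnpla5 is at 0 in the 3 PG bins from 20 to 160 and at 198 CPM in the last.

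The stages are cut from marker sums, so the levels were also read over bins of the 13 summed sebocyte markers, as the plot of levels by marker bins shows. All 7 late stage markers are among these 13, so the bins are not independent of the stages. The bins hold SEB-like, keratinocyte-like and upper follicle-like cells and those past no gate, and leave out stroma, immune cells and, in skin, the hair matrix and inner root sheath. In PG, *Mgll* was at 32.6, 67.2, 103, 145, 610, 1744 and 5704 CPM from the lowest to the highest bin, and *Lpl* at 18.8, 28.9, 52.0, 74.3, 98.1, 199 and 665 CPM. *Pnpla5* jumped instead, with 0 UMIs in the 671, 392 and 307 cells of the bins from 20 to 160 and 164 UMIs in the 117 cells above 160. In skin the highest bin held 10 cells, and *Mgll* there was at 1864 CPM (1542 to 2232) against 20.01 to 251 CPM in the bins from 5 to 160.

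*Lpl*, which acts on lipoproteins in the circulation, had its main levels in stroma and in late SEB-like cells of the PG. Fibroblast-like cells held 284 CPM (262 to 308) in skin and 437 CPM (398 to 479) in PG, where they came before SEB-like cells as a whole, at 251 CPM (236 to 267). In skin, macrophage or dendritic-like cells at 236 CPM (194 to 286) overlapped with fibroblasts, and SEB-like cells followed at 108 CPM (59.3 to 182), level with endothelial-like cells at 106 CPM (66.5 to 161). Endothelial-like cells of the PG held 207 CPM (126 to 319), which overlapped with SEB-like cells, and macrophage or dendritic-like cells came below, at 84.8 CPM (59.4 to 117). Across PG stages *Lpl* went from 90.8 CPM (68.8 to 118) over 198 CPM (183 to 214) to 949 CPM (854 to 1050), and 45 of 51 late cells held a UMI. Late SEB-like cells of skin were at 167 CPM (86.4 to 292) from 12 UMIs in 8 of 13 cells. After thinning, 51.0% of late PG cells held an *Lpl* UMI against 1.34% of the upper follicle-like cells of the same library (88.2% and 3.22% before thinning, at medians of 8157 and 4122 UMIs).

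Within the fibroblast-like cells *Lpl* divided along known subsets. Cells with a UMI of *Apod* and none of *Pi16* held 536 CPM (473 to 606) in skin and 724 CPM (644 to 812) in PG. Those with *Pi16*, a gene of adventitial fibroblasts, and no *Apod* held 121 CPM (93.5 to 153) and 79.3 CPM (41.0 to 139). *Mgll* lay the other way in skin, at 41.6 CPM (25.4 to 64.2) with *Apod* and 166 CPM (134 to 203) with *Pi16*, and overlapped between the subsets in PG. Adipocyte markers in the fibroblast-like cells summed to 0.0197 per 10000 in skin and 0.00955 in PG, with *Adipoq*, the adipocyte hormone, at 0 in both. In the macrophage or dendritic-like cells of skin, 91 of the 107 UMIs of *Lpl* were in the 58 cells without *C1qa*, *C1qb* or *Cd207*, at 622 CPM (501 to 764), and 1 cell held 22 of the 107. The 118 cells with a C1q UMI, a sign of tissue macrophages, held 56.1 CPM (29.9 to 96.0). In PG 167 of the 190 cells held C1q, at 89.2 CPM (61.8 to 125).

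*Lipm*, *Lipk* and *Lipn*, the epidermal lipases, followed the layers of the skin epidermis. *Lipm* stood at 4.80 CPM (3.58 to 6.29) in basal-like, 60.8 CPM (54.4 to 67.7) in suprabasal-like and 163 CPM (135 to 194) in granular-like cells, and 64 of the 102 granular-like cells held a UMI. *Lipk* was at 0.185, 0.551 and 37.7 CPM (25 to 54.4) over the same layers, and *Lipn* at 0, 0.551 and 43.0 CPM (29.4 to 60.8). The 28 UMIs of *Lipk* and 32 of *Lipn* in granular-like cells came from 18 cells each. With cells past several gates kept, each cell was placed by its highest marker score, which also redraws the granular-like class. The levels of *Lipk* and *Lipn* in it were then 79.6 and 139 CPM. *Lipm* was thus already present in the suprabasal layer, while *Lipk* and *Lipn* had 3 UMIs each among its 1439 cells. The upper follicle-like cells of skin held *Lipm* at 40.1 CPM (30.2 to 52.4), *Lipk* at 2.97 CPM and *Lipn* at 0.743 CPM.

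The PG had 0 granular-like cells, and its epidermal lipases lay elsewhere. *Lipk* had 45 of its 51 PG UMIs in 35 of the 373 upper follicle-like cells, at 26.5 CPM (19.3 to 35.5), which overlapped with the granular-like cells of skin. These cells also held suprabasal markers, at 155 per 10000. That is above the suprabasal gate limit of 100, but the upper follicle gate took precedence. *Lipn* had 0 UMIs in PG, which allows up to 0.196 CPM over all kept cells. In the same upper follicle-like cells *Lipm* was at 28.9 CPM (21.4 to 38.2), and the 48 suprabasal-like cells held 34.2 CPM (11.1 to 79.7) from 5 UMIs. *Lipm* was also found in PG sebocytes, at 4.78 CPM (0.986 to 14.0) in early, 21.8 CPM (17.0 to 27.5) in middle and 36.0 CPM (19.7 to 60.4) in late cells. The SEB-like cells of skin held 1 UMI of *Lipm*, in an early cell, and the 0 of the late cells allows up to 41.8 CPM, so skin and PG do not differ beyond counting error there. *Ankrd22*, on the other strand of the *Lipm* locus, followed a like order, at 8.40, 25.3 and 41.7 CPM over the layers of skin and 25.5, 37.3 and 56.6 CPM over the stages of the PG. Its part in the *Lipm* counts was not tested.

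**Figure D4:**
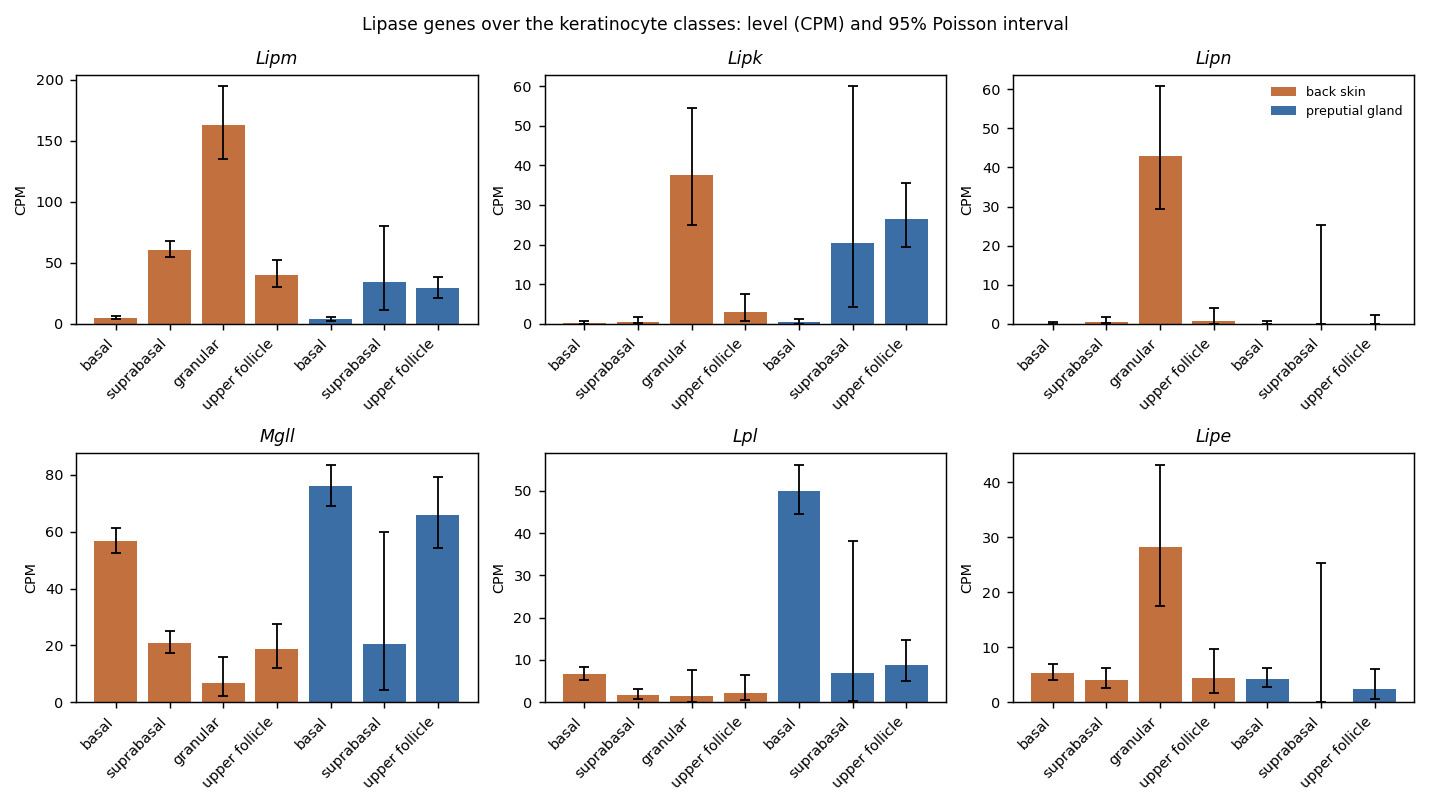
Level in CPM (y axis, from 0, own scale per panel) of 6 lipase genes in the keratinocyte-like and upper follicle-like classes (x axis) of back skin (orange) and PG (blue), with 95% Poisson intervals. Lipm, Lipk and Lipn are highest in granular-like cells of skin, at 163, 37.7 and 43.0 CPM, and Mgll and Lpl are highest in the basal-like cells of each tissue.

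*Lipa*, the lysosomal acid lipase, was highest in macrophage or dendritic-like cells, at 113 CPM (83.9 to 148) in skin and 101 CPM (73.3 to 136) in PG. Endothelial-like cells of skin came next, at 67.5 CPM (36.9 to 113), with overlapping intervals, and fibroblast-like cells at 33.9 CPM (26.4 to 42.9) in skin and 29.6 CPM (20.1 to 42.0) in PG. In skin, cells with a C1q UMI held 151 CPM (105 to 210), and those with *Cd207*, a marker of Langerhans cells, and no C1q held 40.2 CPM (8.29 to 117). In sebocytes *Lipa* had 19 UMIs in PG, at 4.49 CPM (2.70 to 7.01), and 1 in skin. After thinning, 11.3% of the macrophage or dendritic-like cells of skin and 11.1% of those of PG held a UMI, against 0.692% and 0.303% of basal-like keratinocytes.

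The first comparison set SEB-like against keratinocyte-like cells of the same library, without the upper follicle-like cells. In PG 5 of the 7 members with enough UMIs were past 2-fold higher in SEB-like than in keratinocyte-like cells and 0 lower, where 8.04% of 12158 genes were higher and 28.9% were past 2-fold in either direction. Their log2 ratios were 6.24 (4.67 to 8.54) for *Pnpla5*, 4.79 (4.65 to 4.93) for *Mgll*, 2.36 (2.17 to 2.55) for *Lpl*, 2.27 (1.61 to 2.97) for *Lipm* and 1.59 (1.26 to 1.94) for *Pnpla2*. The 7 members had a median of 2.27, against -0.21 over all genes. *Lipm*, at 20.6 CPM in SEB-like cells, was not above the upper follicle-like (28.9 CPM) or suprabasal-like cells (34.2 CPM) of the PG. In skin 3 of 6 were past 2-fold higher, *Mgll* at 4.53 (4.25 to 4.81), *Lpl* at 4.51 (3.58 to 5.34) and *Pnpla2* at 1.68 (0.04 to 2.92), where 25% of 9124 genes were higher and 39.4% past 2-fold in either direction. *Lipm* was lower there, at -1.93 (-7.24 to 0.55), from 1 UMI. Without the UMIs of a gene in the cell that holds most of them, 2 members of skin were past 2-fold.

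The next comparison followed the members over sebocyte maturation. In PG all 5 members with enough UMIs were past 2-fold higher in late than in early cells, where 11.1% of 7335 genes were higher, 30.3% lower and 41.4% past 2-fold in either direction. The log2 ratio was at least 6.46 for *Pnpla5*, 3.40 (3.25 to 3.54) for *Mgll*, 3.38 (2.98 to 3.81) for *Lpl*, 2.91 (1.07 to 5.35) for *Lipm* and 1.15 (0.35 to 1.97) for *Pnpla2*. As folds, *Mgll* rose 10.5-fold and *Lpl* 10.4-fold, and *Pnpla5* was at least 88.2-fold higher. The other 5 members had fewer than 10 UMIs over these stages, among them *Lipa* with 1 late and 5 early UMIs. *Pnpla5* (164 late and 0 early UMIs) and *Lipm* (14 and 3) reached that limit through the late cells, so the count is partly set by it. Late cells also held markers of the upper follicle at 48.3 per 10000 (5 of 6 markers), against 11.8 (6 of 6) in early cells, and their part was not tested. With a mitochondrial share of at most 5%, which is under the median of the late cells, 3 members were past 2-fold, *Mgll* was at 3.35 and *Pnpla5* at least at 4.96. With marker limits doubled or halved, *Mgll* was at 2.46 or 4.05. In skin *Mgll* was at least 3.81 (at least 14.0-fold) and *Lpl* 2.05 (-0.71 to 7.47) higher in late than in early cells. These were the 2 members with enough UMIs, and 26.2% of 1326 genes were past 2-fold higher and 36.7% in either direction. Both reached the limit through the late cells, with 122 and 12 UMIs there against 0 and 1 in early cells. The skin result rests on 13 and 7 cells, and under 7 alternatives the count was 1.

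The question of the study, how PG sebocytes compare with skin sebocytes, was taken next. Of 7 members, 3 were past 2-fold higher in PG SEB-like cells and 1 was lower, where 14.5% of 8286 genes were higher, 22.4% lower and 36.9% either. *Mgll* was higher by a log2 ratio of 1.05 (0.80 to 1.31) and *Lpl* by 1.21 (0.46 to 2.09). *Lipm* at 1.41 (-1.11 to 6.73) and *Lipe* at -1.86 (-4.72 to 3.59) were called from 1 skin UMI each, and their intervals span 0. *Pnpla2* at 0.50 (-0.75 to 2.13), *Pnpla5* at 0.32 (-1.06 to 2.22) and *Lipa* at -0.79 (-3.44 to 4.59) had intervals that span 0. The call of *Mgll* depends on the setting. Its ratio went from 0.28 with a mitochondrial share of at most 5% to 1.69 without the *Mgll* UMIs of the top cell of each class. The other UMIs of that cell stayed in the class total. The count went from 1 to 4 members. The 8 middle cells of skin, of weak identity, held 32544 of the 129120 UMIs of the skin class. Of its 129 *Mgll* UMIs, 122 were in late and 0 in early cells, and of its 14 *Lpl* UMIs, 12 and 1. The middle cells thus lower both skin levels, and the ratios without them were not taken. The stages have different shares in the 2 classes, since 51 of the 771 PG cells and 13 of the 28 skin cells were late. Between late cells, *Mgll* stood at 7411 CPM (7143 to 7687) in PG and 1699 CPM (1411 to 2029) in skin, *Lpl* at 949 CPM (854 to 1050) and 167 CPM (86.4 to 292), and *Pnpla5* at 422 CPM (360 to 491) and 55.7 CPM (15.2 to 143). None of these 3 pairs of intervals overlap, and they cover counting error only. The share of all genes without overlap was not taken, so the 3 pairs are descriptions. *Pnpla2* overlapped between late cells, at 84.8 CPM in PG and 69.6 CPM in skin. *Lipm*, at 36.0 CPM in PG and 0 in skin, did not differ beyond counting error. Cells counted as late that also passed the early limit were 4 of 13 in skin and 7 of 51 in PG. They held 32037 of the 71796 late UMIs in skin and 59922 of 389000 in PG, and their part was not tested. The late level of *Pnpla5* in skin rests on 1 cell.

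**Figure D5:**
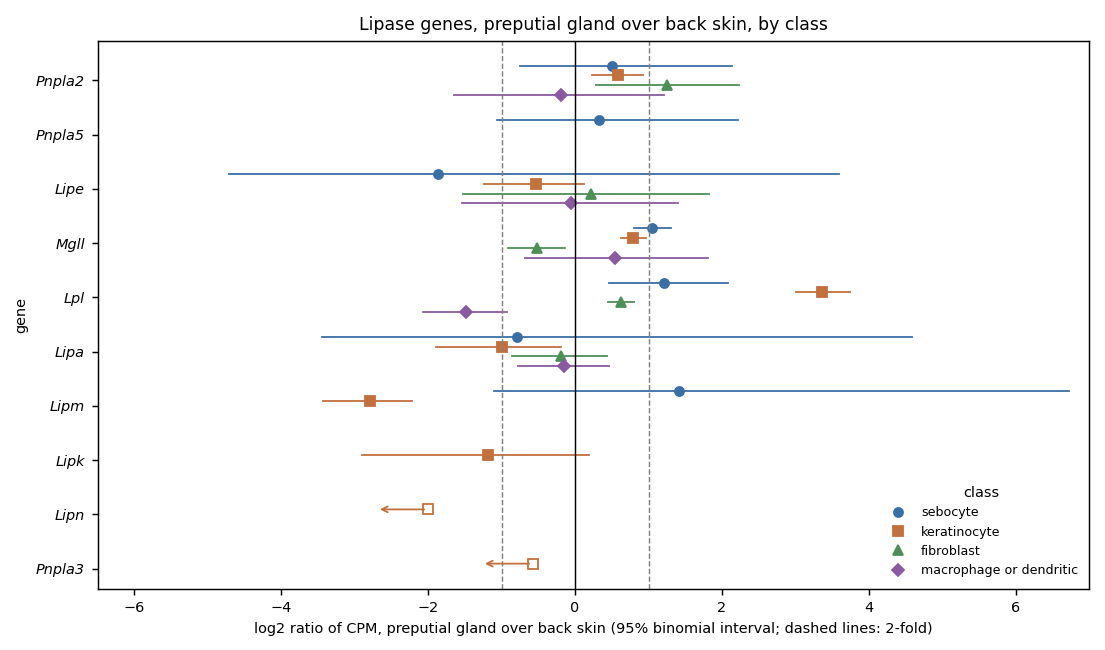
Log2 ratio of CPM, PG over back skin (x axis), for each lipase gene (y axis) in sebocyte-like, keratinocyte-like, fibroblast-like and macrophage or dendritic-like cells, with 95% binomial intervals for counting error. Open symbols with arrows are values at the floor of 3 counts where the PG held 0 UMIs, and dashed lines mark 2-fold. Lpl lies at 3.36 in keratinocyte-like cells and at -1.48 in macrophage or dendritic-like cells.

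The same ratio was taken in the other classes. In keratinocyte-like cells 4 of 9 members were past 2-fold, where 39.1% of 14301 genes were, with 18.8% higher and 20.2% lower. *Lpl* was higher in PG by 3.36 (3.00 to 3.74), which is 10.3-fold, and *Mgll* by 0.79 (0.62 to 0.97). *Lipm* at -2.79 (-3.44 to -2.22), *Lipk* at -1.18 (-2.90 to 0.18) and *Lipn* at -2.01 or less were lower. The class leaves out upper follicle-like cells, which held *Lipk* at 26.5 CPM in PG and 2.97 CPM in skin, and over all kept cells *Lipk* was higher in PG, at 3.34 CPM (2.49 to 4.39) against 1.35 CPM (0.951 to 1.86). Upper follicle-like cells also held *Lipm*, with 49 UMIs in PG and 54 in skin. Over all kept cells *Lipm* was lower in PG, at 11.5 CPM against 22.8 CPM. The classes differ in make-up, since 1541 of 5444 cells were suprabasal or granular-like in skin and 48 of 2030 in PG. In basal-like cells alone *Lpl* was at 6.55 CPM (5.12 to 8.26) in skin and 50.05 CPM (44.4 to 56.2) in PG. The 13 sebocyte markers in keratinocyte-like cells summed to 12.6 per 10000 in PG (12 of 13 markers) and 1.44 in skin (10 of 13), free RNA held *Lpl* at 172 and 18.8 CPM, and with free RNA subtracted the ratio was 3.39. In fibroblast-like cells 1 of 5 members was past 2-fold (22.7% of 11249 genes), *Pnpla2* at 1.25 (0.28 to 2.23), with *Lpl* at 0.62 (0.44 to 0.80) and *Mgll* at -0.52 (-0.91 to -0.14). In macrophage or dendritic-like cells 1 of 5 was (31.6% of 6952 genes), *Lpl* at -1.48 (-2.07 to -0.92). With the mean of the cells' own CPM that ratio was -0.94 and the count 0. The *Lpl* ratio was thus above 0 in SEB-like, keratinocyte-like and fibroblast-like cells and below 0 in macrophage or dendritic-like cells as a whole. Among the latter, cells with a C1q UMI held 89.2 CPM in PG and 56.1 CPM in skin, with overlapping intervals, and 91 of the 107 skin UMIs were in the 58 cells without C1q or *Cd207*, of which PG had 23. Whether these ratios differ was not tested.

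Over the layers of skin, suprabasal and granular-like keratinocytes as 1 group were set against basal-like ones. Of 9 members, 4 were past 2-fold higher and 3 lower, where 8.33% of 13588 genes were higher, 23% lower and 31.3% either. *Lipk* was higher by 4.76 (2.79 to 7.87), *Lipn* by at least 4.35, *Lipm* by 3.93 (3.51 to 4.37) and *Pnpla3* by 1.98 (0.14 to 4.13), the last from 13 UMIs. *Lpl* at -2.02 (-3.14 to -1.06), *Mgll* at -1.56 (-1.86 to -1.28) and *Lipa* at -1.23 (-2.09 to -0.45) were lower. In PG all 4 members with enough UMIs were past 2-fold (33.9% of 8596 genes), with *Lipm* higher at 3.29 (1.52 to 4.74). *Lpl* at -2.87 (-8.18 to -0.38), *Mgll* at -1.89 (-4.18 to -0.34) and *Pnpla2* at -1.43 (-6.74 to 1.08) were lower. The calls rest on few UMIs in the suprabasal-like cells, such as 5 of *Lipm*, 3 of *Mgll* and 1 of *Pnpla2*. The PG side holds 48 cells, 28 of them within 1.5 times the gate, and with marker limits doubled the count was 0. In both tissues, cells past both the suprabasal and the upper follicle gate counted as upper follicle-like and were left out.

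Other genes of these pathways were followed as 4 lists, and their counts stand beside the shares of all genes. Between late and early PG cells 11.1% of all genes were past 2-fold higher and 30.3% lower. Of the 12 regulators of droplet lipolysis, 6 had enough UMIs there, and 3 of them were past 2-fold higher and 2 lower (median 1.39, all genes -0.40). *Hilpda*, an inhibitor of *Pnpla2*, was higher by 4.90 (4.18 to 5.73) and *Abhd5*, its activator, by 2.54 (2.07 to 3.04), along with the fatty acid binding protein *Fabp5* at 3.43 (3.29 to 3.57). *G0s2*, another inhibitor of *Pnpla2*, was lower by a log2 ratio of -1.69 (-3.43 to -0.28). Between the tissues, PG SEB-like cells held less *Fabp4*, by -7.30 (-8.07 to -6.59, 743 CPM in skin and 4.73 CPM in PG), and less *Fabp5*, by -2.98 (-3.04 to -2.92). *G0s2* at 3.19 (0.70 to 8.49) and *Hilpda* at 2.54 (0.68 to 5.59) were higher, with 1 and 2 UMIs in skin. All 96 UMIs of *Fabp4* in skin SEB-like cells were in the middle cells, whose identity as sebocytes is weak, with 0 in early and late cells. In fibroblast-like cells *Fabp4* went the other way, at 2.15 (1.78 to 2.52), as 1 of 4 regulators of 8 that were higher in PG, where 12.2% of all genes were.

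Of the 15 partners of lipoprotein lipase, 9 had enough UMIs between late and early PG cells, and 1 was past 2-fold higher and 2 lower (median 0.32), against the same 11.1% and 30.3% of all genes. The fatty acid receptor *Cd36* was higher by 5.90 (3.33 to 11.24), from 37 UMIs against 1. *Furin*, a protease that cleaves *Lpl*, at -3.86 (-6.95 to -1.93) and the lipoprotein ligand *Apoe* at -1.54 (-1.63 to -1.45) were lower. In keratinocyte-like cells 6 of 12 partners were higher in PG than in skin and 2 lower (median 0.95, all genes 0.04), where 18.8% of all genes were higher and 20.2% lower. *Angptl4*, a secreted inhibitor of *Lpl*, was higher by 2.79 (2.498 to 3.09) there and by 1.53 (0.40 to 2.98) in SEB-like cells. *Cd36* was lower in PG SEB-like cells, at -3.18 (-4.09 to -2.17), from 101 CPM in skin and 11.1 CPM in PG. Of the 47 UMIs in PG, 37 were in the 51 late cells, at 95.1 CPM, and the 13 late cells of skin held 167 CPM from 12 UMIs. The part of the share of late cells in this ratio was not tested.

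Among the 26 other neutral lipid hydrolases, 10 had enough UMIs between late and early PG cells. Of these 9 were past 2-fold higher and 0 lower (median 1.53, all genes -0.40), against 11.1% and 30.3% of all genes. The largest ratios were those of *Faah*, which degrades anandamide, at 3.86 (1.80 to 7.01), *Abhd6*, a second monoglyceride lipase, at 2.77 (1.88 to 3.77), *Liph* at 2.76 (1.31 to 4.52) and *Pla2g15*, a lysosomal phospholipase, at 2.56 (0.64 to 5.05). *Faah*, *Liph* and *Pla2g15* had 2, 5 and 3 UMIs in early cells and reached the limit of 10 through the late cells. Some hydrolases with more UMIs in early cells stayed under it, so the count is partly set by the limit. *Faah* at 3.04 (2.63 to 3.48) and *Abhd6* at 2.03 (1.65 to 2.43) were also past 2-fold higher in suprabasal or granular-like than in basal-like cells of skin, where *Mgll* fell by 1.56. There 4 of the 17 hydrolases with enough UMIs were higher and 5 lower, against 8.33% and 23% of all genes. *Aadac*, an esterase of the endoplasmic reticulum, was at 256 CPM in skin SEB-like cells and 1.18 CPM in those of PG, a ratio of -7.76 (-9.47 to -6.39). Of the 12 lysosomal genes around acid lipase, 9 had enough UMIs between late and early PG cells. Of these 4 were past 2-fold higher and 2 lower (median 0.92), against 11.1% and 30.3% of all genes. In macrophage or dendritic-like cells *Lipa* itself was at -0.15 (-0.77 to 0.46) between the tissues.

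Between SEB-like and keratinocyte-like cells 8.04% of all genes were past 2-fold higher and 20.9% lower in PG, and 25% and 14.4% in skin. The regulators with enough UMIs were 9 in PG, with 4 past 2-fold higher and 2 lower (median 0.35, all genes -0.21), and 8 in skin, with 4 higher and 0 lower (median 1.04, all genes 0.21). *Abhd5* at 2.28 (2.04 to 2.53) and *Hilpda* at 2.05 (1.76 to 2.35) were among those higher in PG, and *Fabp4* at 4.61 (4.28 to 4.93) and *Fabp5* at 4.10 (4.04 to 4.16) among those higher in skin. For *Fabp4*, all UMIs of skin SEB-like cells were in the middle cells, whose identity as sebocytes is weak. The other 2 calls of skin, *G0s2* and *Adrb3*, rest on 1 UMI each in SEB-like cells. Of the partners of *Lpl*, 4 of 12 were higher and 3 lower in PG, and 5 of 10 higher and 0 lower in skin, where *Cd36* was at 7.42 (6.12 to 8.77). In skin the calls of *Lmf1*, *Apoc2* and *Vldlr* rest on 1, 1 and 2 UMIs in SEB-like cells, with intervals that span 0. Of the other hydrolases, 7 of 16 were higher and 1 lower in PG, and 5 of 10 higher and 1 lower in skin (medians 0.86 and 1.39). In skin the calls of *Pnpla7*, *Lipo3* and *Abhd6* rest on 2, 2 and 1 UMIs in SEB-like cells. *Ces1d*, a carboxylesterase that can hydrolyse triglycerides, was at 2.98 (2.51 to 3.48) in PG and 7.37 (6.17 to 8.59) in skin. Of the lysosomal genes, 0 of 12 were higher and 4 lower in PG, and 1 of 9 was higher and 1 lower in skin (medians -0.24 and -0.27).

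Genes with a pattern like that of a member were sought over 24 groups of cells of both tissues, by Pearson's correlation of log2(CPM + 1) among 12588 genes that were not markers. The groups share 2 libraries and differ in depth, so the values are descriptions. *Mgll* was closest to *Cyb5b* (r = 0.88), *Hsd17b10* (0.81) and *Tmem109* (0.80), and *Pnpla5* to *Acoxl* (0.93), *Aadacl4* (0.86) and *Gm13178* (0.86). *Lpl* was closest to *Flot2* (0.81), *Myrip* (0.81) and *Nampt* (0.79), *Pnpla2* to *Nrip2* (0.82), *Gja4* (0.81) and *Foxs1* (0.77), and *Lipe* to *Sema7a* (0.84), *B4galt4* (0.80) and *Mknk1* (0.80). *Lipm* was closest to *Scnn1a* (0.95), *Zfp750* (0.92) and *Tuba8* (0.91), *Lipk* to genes that include *Atp12a* (0.92) and *Ptk6* (0.91), and *Lipa* to *Trf* (0.87), *Irgm1* (0.86) and *Zbp1* (0.85). Of the 173 UMIs of *Pnpla5* in these groups, 164 were in late PG cells, so its values rest on few groups. The highest levels of *Pnpla2* were in the contractile groups, which held 23 cells each. *Pnpla3* and *Lipn* had under 50 UMIs and were left out. Among the members, *Mgll* and *Lpl* had r = 0.63, *Lipm* and *Lipk* 0.61 and *Pnpla5* and *Mgll* 0.58. The lowest value was that of *Lipm* and *Lipa*, at -0.59.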

How the data were processed

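Back skin and PG cells were measured as 1 droplet library per tissue, pooled from 3 mice. The authors deposited, per library, raw counts, that is UMIs of each gene in each barcode, made with Cell Ranger 4, not normalized and for all 6794880 (skin) and 737280 (PG) barcodes of the lists, of which 77142 are on both. The labels name the build mm10, and the annotation release is not given in the sources used here. Gene positions came from GENCODE vM21, which may differ from the annotation used for counting.

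Cells were kept by the filters given above and placed in classes by marker gates. The markers were fixed, and the gate limits were set after the data had been seen. The sebocyte gate asked for 30 UMIs per 10000 from at least 3 of 13 markers, the late stage for 10 and the early stage for 20 per 10000 from at least 2 markers, and late took precedence. Cells passing gates of several compartments were left out, doublets were not removed in the main values, and 1 of 7 hair matrix markers (*Krt85*) was not matched. Members and lists were chosen with earlier results of these data known. All 10 members were named, and of each list those past 2-fold with at least 20 CPM in a group, at most 4 per direction, as well as the 3 genes most like each member, of which some are not reported here. Thinned shares have exact Clopper-Pearson intervals. Intervals and floors cover counting error only. No test was run, 10 comparisons were made, and 16 alternatives were tried with 2 added later. Scripts were tested on simulated data. The software was Python 3.11.15, pandas 2.3.3, scipy 1.17.1, numpy 2.4.6, leidenalg 0.10.2, igraph 0.11.9 and matplotlib 3.10.9.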

Additional observations from a re-analysis of the deposited data

Results flagged for a closer look

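In 3 cases the log2 ratio of a member pointed one way in PG and the other way in skin under the same comparison. The difference between the tissues was not tested in any of them, since there is 1 library per tissue. For *Lipm*, SEB-like over keratinocyte-like cells gave 2.27 in PG (87 and 25 UMIs) and -1.93 in skin, where the SEB-like cells held 1 UMI. For *Lipe* the same comparison gave -0.94 in PG (9 and 24 UMIs) and 0.38 in skin, again from 1 UMI in SEB-like cells. For *Pnpla2*, suprabasal or granular-like over basal-like keratinocytes gave -1.43 in PG, from 1 UMI in 48 cells, and 0.81 in skin (103 UMIs on each side). The interval of the side that rests on 1 UMI spans 0 in each of the 3 cases.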

How the results depend on the processing

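No paired analysis was possible because each tissue is 1 library and the labels give no replicate numbers. Over all alternatives, 159 of 176 counts of members past 2-fold stayed within 1.5 times the main count, 937 of 1001 log2 ratios and 977 of 1050 levels moved by less than their counting interval, and 0 called values changed sign. The alternatives without the top cell of each gene and without cells of both stages were chosen after seeing the data. In the first of these only the UMIs of that gene were taken out, and the UMI total of the class was kept. The count for late over early cells of skin was 1 in place of 2 with a mitochondrial share of at most 5%, with marker limits doubled or halved, with cells of several gates kept, with at least 30 UMIs, without the top cell and without cells of both stages. With a mitochondrial share of at most 5%, PG over skin in SEB-like cells was 2 in place of 4 and late over early cells of PG 3 in place of 5. With marker limits doubled, the count was 1 for PG over skin in SEB-like cells, 0 for fibroblast-like cells and 0 for suprabasal over basal cells of PG, which was 2 with at least 1000 genes. The fibroblast count was 2 in place of 1 with at least 200 genes per barcode. The macrophage or dendritic count was 2 with cells of several gates kept and 0 with the mean of the cells' own CPM, and SEB-like over keratinocyte-like cells of skin was 2 in place of 4 without the top cell. The cause of these moves was not tested.

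Clusters in place of gates named 0 of 26 skin clusters sebocyte and 2 of 15 in PG (740 cells), so 4 comparisons have no value there. Scaling by the median ratio moved all log2 ratios by -0.22 in SEB-like and 0.20 in keratinocyte-like cells between tissues, 0.27 (PG) and -0.36 (skin) between stages, 0.51 for SEB-like over keratinocyte-like cells of skin, and -0.11 (skin) and 0.22 (PG) between layers, and no count changed by over 1.5 times. Depth limits mainly skin, with 28 SEB-like cells and 129120 UMIs.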
